A study of Rattus norvegicus with 31 samples.

Results

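Recombinant inbred strains of the HXB and BXH panel were divided by the level of Endog in the left ventricle of the heart. Endog encodes endonuclease G. A strain was placed in the high group when the deposited log2 value of Endog in the RefSeq gene table was over 9.2 and in the low group when it was 9.2 or less. Of the 21 strains, 12 were high and 9 were low, and each strain had 1 library, out of 31 libraries in the series. The strains were thus chosen by the measured level of Endog, so its levels are a description and were not tested.

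The series holds total RNA, depleted of ribosomal RNA, from the left ventricle of untreated naive male rats. Both families descend from a cross of BN-Lx/Cub, which carries the normotensive Brown Norway background, and SHR/OlaIpcv, the spontaneously hypertensive rat, and each inbred strain fixed its own mosaic of the 2 progenitor genomes. The high group held 7 HXB/Ipcv and 5 BXH/Cub strains, with 3 libraries in sequencing batch 2 and 9 in batch 3. The low group held 5 HXB/Ipcv and 4 BXH/Cub strains, with 3 libraries in batch 2 and 6 in batch 3. A strain is represented by 1 library, so the spread within a group holds the differences between strains as well as between animals and libraries.

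Endonuclease G is encoded in the nucleus and imported into mitochondria, where it resides in the intermembrane space and can cut both DNA and RNA. During apoptosis it can leave the mitochondrion and degrade nuclear DNA, and in the heart it has been linked to mitochondrial lipid metabolism and to hypertrophy. In a recombinant inbred strain a gene is inherited together with its neighbours on the chromosome, so a difference between strains at 1 gene usually comes with the same progenitor's version of the genes around it. The comparison of high with low strains therefore asks which other genes differed, and whether they lay beside Endog or elsewhere.

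In the annotation deposited with the data (rn7 build), Endog lies on chromosome 3 from 13449113 to 13451715 on the plus strand, with 3 exons. Its end overlaps an assembled gene on the minus strand, from 13451191 to 13493308, that carries the names Kyat1 and Spout1. The reference sequence of the 250 bases before the Endog start is shown because Endog is the gene the grouping rests on, and that of Card9 because it had the largest fall among the called genes. Both are from RefSeq on the GRCr8 build, at chr3:33846685-33846934 on the plus strand and chr3:29578403-29578652 on the minus strand. Capitals mark a CCAAT box (CCAAT) or an Sp1 box (GGGCGG), searched on both strands.
Endog: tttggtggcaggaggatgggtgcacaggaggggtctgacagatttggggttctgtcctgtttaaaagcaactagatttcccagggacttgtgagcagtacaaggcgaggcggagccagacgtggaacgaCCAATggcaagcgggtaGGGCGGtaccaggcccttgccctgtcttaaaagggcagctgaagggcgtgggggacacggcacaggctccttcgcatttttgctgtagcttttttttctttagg
Card9: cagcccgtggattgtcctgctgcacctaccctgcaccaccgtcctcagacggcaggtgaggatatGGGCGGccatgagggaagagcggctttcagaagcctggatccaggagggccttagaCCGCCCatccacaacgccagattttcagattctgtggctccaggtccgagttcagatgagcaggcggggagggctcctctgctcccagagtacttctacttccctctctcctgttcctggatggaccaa
Of 33469 promoters of the same length, 34.0% held CCAAT and 30.5% held GGGCGG on either strand. A TATA box (TATAAA) and an estrogen-related receptor half-site (AAGGTCA) were searched in the same way and were not in these letters of either gene, while 12.9% and 3.99% of promoters held them. A match describes letters and not a bound site.

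In the low group, Endog ran from 8.30 in HXB31/Ipcv over a median of 8.69 to 9.17 in BXH12/Cub. In the high group it ran from 9.40 in HXB13/Ipcv over a median of 9.88 to 10.36 in BXH9/Cub. The strains just inside and just outside the threshold were BXH8/Cub at 9.15 and BXH12/Cub at 9.17 below it, and HXB13/Ipcv at 9.40 above it. Within each group the BXH strains reached the higher levels. The high BXH strains had a median of 10.31 and the high HXB strains one of 9.80, and the low BXH strains had a median of 9.02 and the low HXB strains one of 8.68. The 3 low strains with the highest Endog, BXH10/Cub, BXH8/Cub and BXH12/Cub, also had the highest mean spike-in level of the low group, from 7.38 to 7.49, and the 3 high strains with the highest Endog, BXH11/Cub, BXH2/Cub and BXH9/Cub, had the highest of the high group, from 7.48 to 7.93. The part of the spike-in level in these Endog values was not tested.

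**Figure D1:**
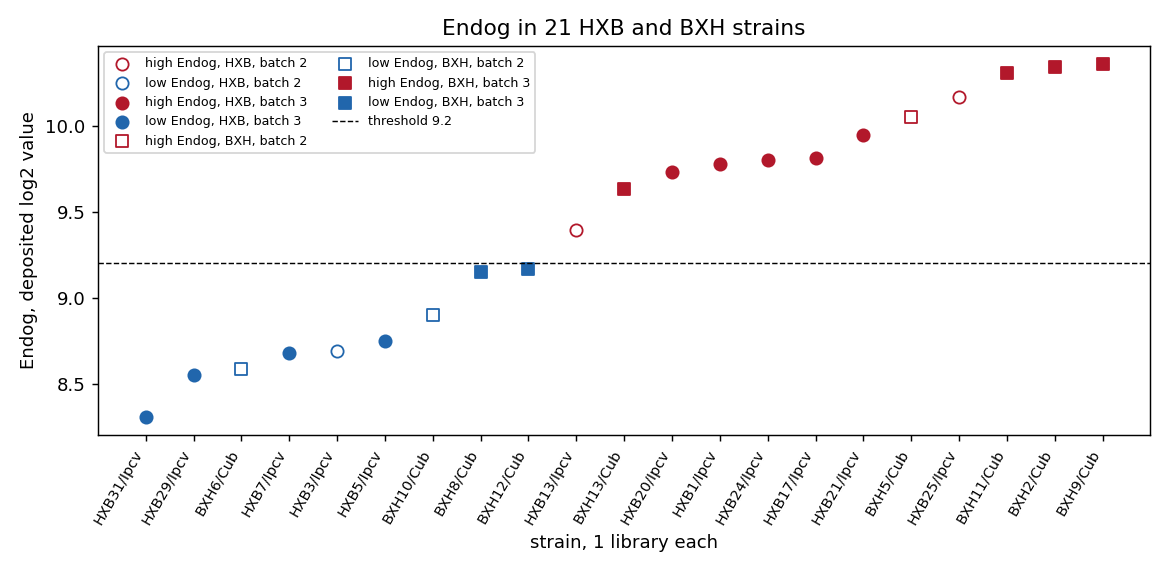
Deposited log2 value of Endog (y axis) in each of the 21 strains (x axis, ordered by that value), with 1 library per strain. Red marks the 12 high strains and blue the 9 low strains, circles HXB and squares BXH, open symbols batch 2 and filled symbols batch 3, and the dashed line is the threshold of 9.2, with 9.17 in BXH12/Cub just below and 9.40 in HXB13/Ipcv just above.

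The split was the same in kind in other deposited tables. In the Ensembl gene table the low strains ran from 9.06 to 9.74 and the high strains from 9.96 to 10.84, without overlap. In the table of genes assembled from the reads the low strains ran from 7.94 to 9.205 and the high strains from 9.05 to 10.50, so that HXB13/Ipcv at 9.05 fell below BXH8/Cub and BXH12/Cub. In that table the 4 BN-Lx animals ran from 9.86 to 10.16 and the 4 SHR animals from 8.07 to 8.21. The median was 9.65 in the high strains, beside 9.96 in BN-Lx, and 8.43 in the low strains, beside 8.15 in SHR, while BXH8/Cub, BXH12/Cub and HXB13/Ipcv lay between the progenitors.

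In the measures available the libraries of the 2 groups overlapped, and with 12 and 9 libraries a small difference could be missed. The mean level of the spike-in RNAs ran from 6.63 to 7.93 in high and from 6.68 to 7.49 in low strains, with a difference of 0.02 (exact permutation test, two-sided, p = 0.925). The median of all genes ran from 7.90 to 7.94 and from 7.88 to 7.92 (difference 0.01, exact permutation test, p = 0.0854). No counts were used here, so the depth is unknown.

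Apart from Endog, 9 of 19099 RefSeq genes passed an adjusted p of 0.05 (limma with batch as a covariate, Benjamini-Hochberg), which is 0.0471% of all genes. Of these, 4 were higher in the high strains (0.0209%) and 5 were lower (0.0262%). Every called gene with a position lay within 20 Mb of Endog. Among the 220 genes positioned there, 5 were called, which is 2.27%, and 36 had an unadjusted p under 0.05, which is 16.4%. Of the 13517 genes with a position elsewhere, 0 were called by limma, and 387 had an unadjusted p under 0.05, which is 2.86%. On the rest of chromosome 3 the count was 0 of 781 called, with 27 genes at an unadjusted p under 0.05. The other 4 called genes were among the 5362 without a position in the deposited annotation. Without the 3 strains nearest the threshold (BXH8/Cub, BXH12/Cub and HXB13/Ipcv) 7 genes were called, 4 of them within 20 Mb and 3 without a position. Grouping at 9.2 by Endog in the table of assembled genes, which exchanged BXH8/Cub and HXB13/Ipcv, left 0 called genes, with adjusted p of the 9 genes from 0.0517 upward and each difference in the same direction. With family or the spike-in level as a further covariate, 9 or 10 genes were called within 20 Mb and 0 with a position elsewhere.

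Among genes with a position in the deposited annotation, the first Mb on either side of Endog held 0 called of 37, with 6 at an unadjusted p under 0.05. From 1 to 2 Mb the count was 2 of 23, from 2 to 5 Mb 2 of 79, from 5 to 10 Mb 1 of 71, and from 10 to 20 Mb 0 of 10. The share with an unadjusted p under 0.05 was 26.1% at 1 to 2 Mb and at most 16.5% in the other bins, beside 3.58% of all genes. The difference between bins was not tested. These counts leave out the called genes without a position, of which LOC102554501 and LOC102550392 stand in GRCr8 between neighbours that lie within 1 Mb of Endog in rn7.

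**Figure D2:**
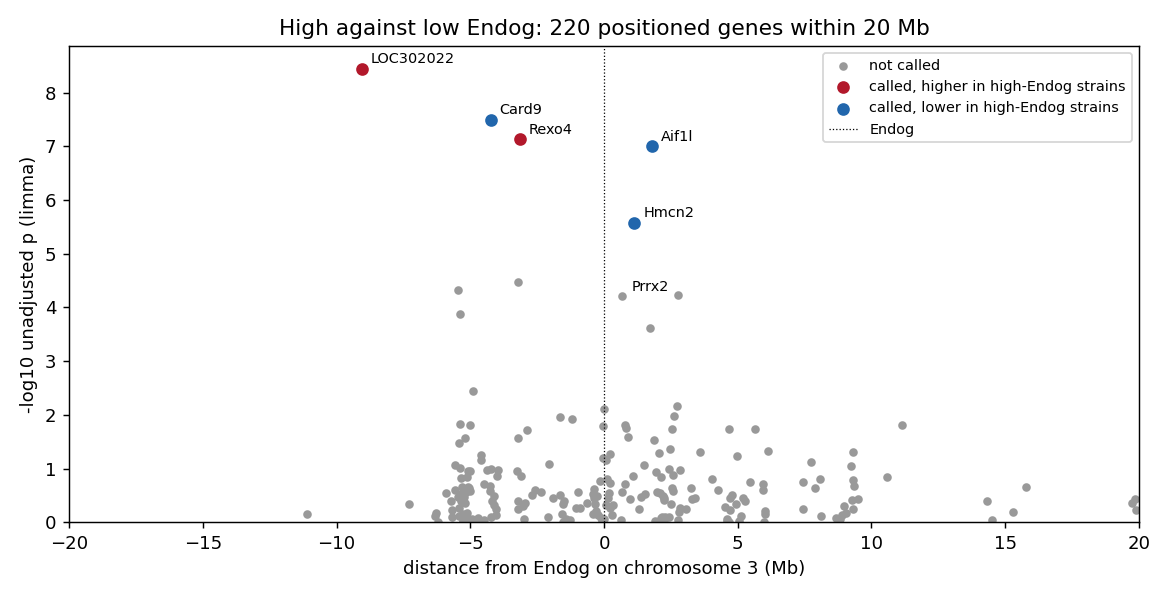
Strength of the difference between high and low strains (y axis, -log10 of the unadjusted limma p) for the 220 positioned genes within 20 Mb of Endog, against the distance from Endog on chromosome 3 in Mb (x axis). Red and blue points are the 5 called genes, higher or lower in high strains, and none of the 37 positioned genes within 1 Mb is among them.

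The called genes on the side toward the chromosome start were LOC302022, Card9 and Rexo4. LOC302022, a predicted gene from 4029034 to 4402334 in rn7, 9.05 Mb from Endog, ran from 5.13 over a median of 5.43 to 5.86 in low strains and from 5.49 over 7.97 to 8.22 in high strains. All high strains but BXH13/Cub lay at 7.21 or above, so the groups met only through that strain. The difference was 2.26 on the log2 scale (SE 0.24, adjusted p = 3.43e-05, limma), a fold of 4.78, and it was 2.61 within batch 2 and 2.11 within batch 3.

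Card9 encodes an adaptor that carries signals from fungal pattern receptors in myeloid cells. It lies in an assembled gene from 9169948 to 9207688 on the minus strand that also carries Entr1 and Snapc4, 4.24 Mb from Endog. Card9 ran from 8.74 over a median of 9.79 to 10.54 in low strains and from 7.12 over 7.57 to 9.55 in high strains. The overlap came from BXH13/Cub at 9.55, while the other high strains did not exceed 8.496. Card9 was lower in high strains by a log2 difference of -2.02 (SE 0.25, adjusted p = 0.000154, limma), so that low strains had 4.06 times the level. The difference was -2.07 within batch 2 and -2.001 within batch 3. Card9 was called in batch 3 alone but not in batch 2 alone (adjusted p = 0.606, limma). Of 9 macrophage markers 0 were called, beside 0.0471% of all genes, a share at which 9 genes would rarely hold a called one. Their differences ran from -0.04 to 0.07, and their summed level from 13.04 to 13.62 in high and from 12.95 to 13.64 in low strains.

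Rexo4 encodes a nuclear protein of the RNA exonuclease family and lies from 10280654 to 10291003 on the minus strand, 3.16 Mb from Endog. Its values were tight, from 10.49 over 10.66 to 10.73 in low strains and from 10.86 over 10.99 to 11.10 in high strains. The ranges did not overlap, which held for 2 of all 19099 genes (0.0105%). The difference was 0.36 (SE 0.05, adjusted p = 0.000279, limma), a fold of 1.28, with 0.32 within batch 2 and 0.37 within batch 3. Rexo4 was called in batch 3 alone but not in batch 2 alone (adjusted p = 0.864, limma).

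On the far side of Endog, Hmcn2 and Aif1l were called, both lower in high strains. Hmcn2 encodes hemicentin 2, a large protein of the extracellular matrix, and lies from 14588353 to 14738320 on the plus strand, 1.14 Mb from Endog. It ran from 10.46 over 10.94 to 11.60 in low strains and from 9.12 over 9.72 to 10.94 in high strains, where BXH13/Cub was again the highest. The difference was -1.07 (SE 0.17, adjusted p = 0.0056, limma), with -1.26 within batch 2 and -0.996 within batch 3. In neither batch alone was Hmcn2 called (adjusted p = 0.864 and 0.188, limma). Without the 3 strains nearest the threshold it missed the threshold of the test (adjusted p = 0.0745, limma).

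Aif1l encodes an actin-binding protein related to allograft inflammatory factor 1. It shares an assembled gene from 15229476 to 15341999 with Nup214, 1.78 Mb from Endog. Aif1l ran from 9.26 over 9.72 to 10.48 in low strains and from 8.44 over 8.72 to 9.45 in high strains, with HXB17/Ipcv and BXH13/Cub the highest of the high group. The difference was -1.05 (SE 0.14, adjusted p = 0.000315, limma), and it was -1.12 within batch 2 and -1.02 within batch 3. Aif1l was called in batch 3 alone but not in batch 2 alone (adjusted p = 0.186, limma). With Endog as a continuous variable the adjusted p of Aif1l was 0.212.

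Of the called genes without a position in the deposited annotation, 3 are neighbours of Endog in GRCr8. LOC102554501, listed there as protein coding, and LOC102550392, listed as a long non-coding RNA, both stand between LOC100361008 and Ntmt1. In the low strains LOC102554501 ran from 5.40 over 5.58 to 5.99 and in the high strains from 3.94 over 4.09 to 5.22, without overlap. Its difference of -1.37 (SE 0.14, adjusted p = 3.19e-05, limma) was the one with the smallest p of all genes. LOC102550392 was higher in high strains, at 6.93 over 7.31 to 7.40 against 6.60 over 6.75 to 6.95 (difference 0.48, SE 0.07, adjusted p = 0.000927, limma), and the groups touched at 6.93 to 6.95.

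RGD1306233 is an earlier name of Pierce1, which encodes a protein inside the microtubules of motile cilia. An assembled gene with the present name lies from 11797031 to 11801959 on the minus strand, 1.65 Mb from Endog. RGD1306233 ran from 4.01 over 4.50 to 4.87 in low strains and from 3.20 over 3.27 to 4.02 in high strains (difference -1.07, SE 0.12, adjusted p = 6.26e-05, limma). The only high strain inside the low range was BXH13/Cub at 4.02. The last called gene, LOC120101859, had a position in neither annotation, and it ran from 2.13 over 2.21 to 2.297 in low and from 2.28 over 2.72 to 3.00 in high strains (difference 0.47, SE 0.07, adjusted p = 0.00412, limma). Its difference was 0.30 within batch 2, where it was not called alone (adjusted p = 0.864, limma), and 0.54 within batch 3, where it was. Without the 3 strains nearest the threshold it was not called (adjusted p = 0.0745, limma). With only genes of a mean above the lower quartile, 2 genes without a position were called in place of 4. Of 61 genes without a position that are neighbours of Endog in GRCr8, 3 were called, of 3766 that lie elsewhere in GRCr8 0 were called with 155 at an unadjusted p under 0.05, and of 1535 in neither annotation 1 was called.

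**Figure D3:**
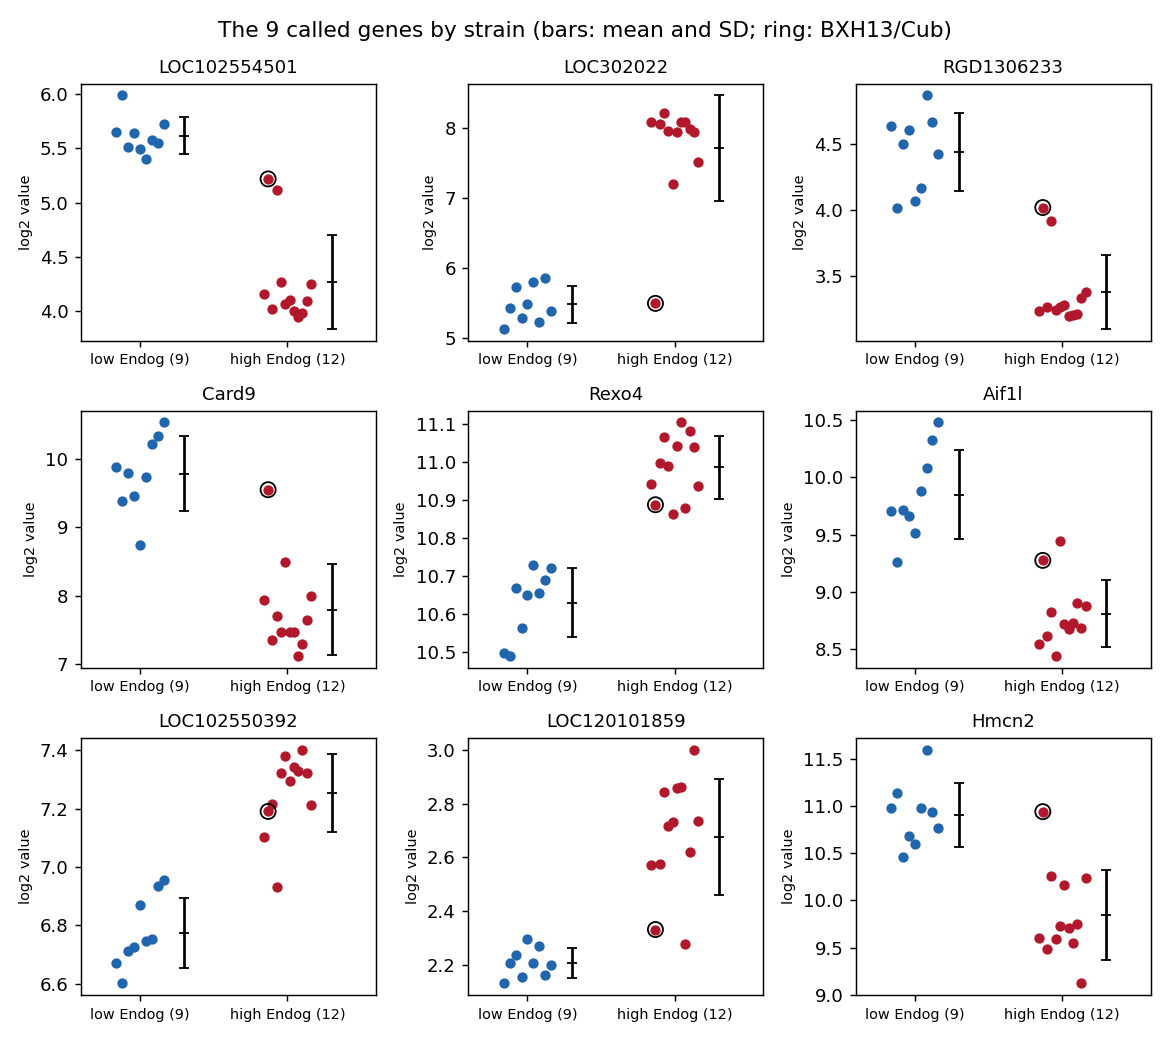
Deposited log2 values (y axes) of the 9 called genes in the 9 low and 12 high strains, a point for each strain, with bars for the mean and SD beside them. The ringed point is BXH13/Cub, which lies inside the range of the low strains for LOC302022, Card9, Hmcn2, Aif1l and RGD1306233, and Rexo4 and LOC102554501 show no overlap.

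Single strains departed from the pattern of their group at some genes. To set the genes on a common scale, values were expressed so that the median of the low group was 0 and that of the high group 1. BXH13/Cub was at 0.79 for Endog, 0.69 for Rexo4, 0.79 for LOC102550392 and 1.24 for Prrx2, but at 0.02 for LOC302022, 0.11 for Card9, 0.00 for Hmcn2 and 0.24 for LOC102554501. It was between the medians, at 0.39, for RGD1306233 and at 0.44 for Aif1l.

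HXB1/Ipcv, at 0.91 for Endog, was at 1.10 for LOC302022, 0.94 for Card9 and 1.22 for Rexo4 but at 0.33 for LOC102550392, 0.32 for LOC102554501 and 0.47 for RGD1306233. HXB17/Ipcv, at 0.94 for Endog, was at 0.27 for Aif1l and 0.58 for Card9. Among low strains HXB3/Ipcv reached 0.47 for Card9 and HXB29/Ipcv 0.46 for Aif1l. The strains next to the threshold took part in the grouping by which the genes were called and scaled, so their values are a description. BXH12/Cub was at 0.40 for Endog, -0.02 for LOC302022, -0.33 for Card9, -0.10 for LOC102554501 and 0.37 for LOC102550392. BXH8/Cub was at 0.39, 0.17, -0.24, 0.02 and 0.33 for the same genes, and at 0.46 for Prrx2. HXB13/Ipcv was at 0.59, 1.05, 0.83, 0.96 and 0.63 for these genes, and at 0.16 for Prrx2. Genotypes were not used here, so these are patterns of RNA level only.

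**Figure D4:**
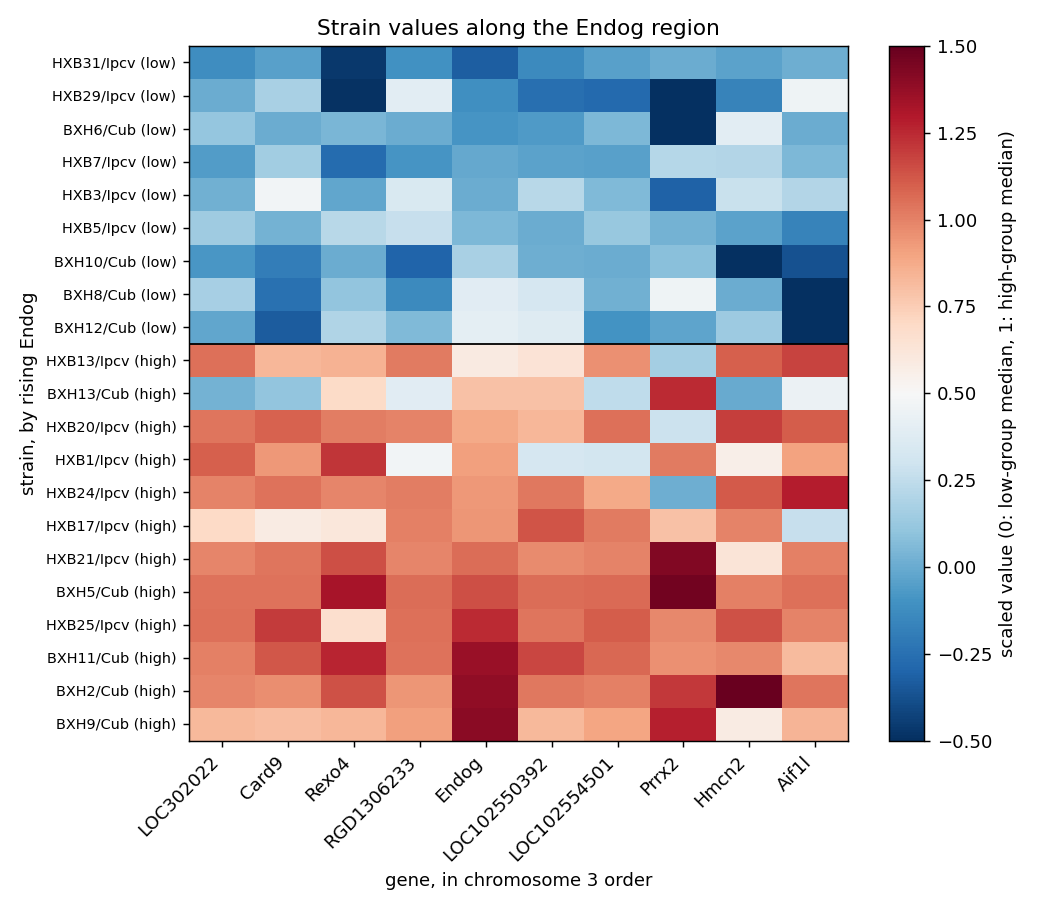
Scaled value (colour, 0 at the median of low strains and 1 at that of high strains) of Endog, Prrx2 and 8 called genes (x axis, in order along chromosome 3) in each of the 21 strains (y axis, by rising Endog, with a line between low and high). The scale is cut at -0.5 and 1.5, the places of LOC102550392 and LOC102554501 are from GRCr8, and BXH13/Cub shows blue cells at LOC302022, Card9 and Hmcn2 beside a red Endog.

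Of the 37 tested genes with a position within 1 Mb of Endog none was called, with 31 lower and 6 higher in high strains, and 36 differed by less than 0.25 on the log2 scale. The exception was Prrx2, a homeobox factor of mesenchyme, 0.68 Mb from Endog. It ran from 4.47 over 4.74 to 4.97 in low strains and from 4.74 over 5.23 to 5.46 in high strains (difference 0.47, SE 0.10, adjusted p = 0.0849, limma). It passed with Endog as a continuous variable (adjusted p = 0.00932) and with family as a further covariate (adjusted p = 0.0316).

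The others with an unadjusted p under 0.05 were Spout1 (-0.21), Zer1 (-0.23), Usp20 (-0.21), Fnbp1 (-0.23) and Tor1b (0.11), with adjusted p of 0.928. Kyat1, an aminotransferase of the kynurenine pathway whose assembled gene overlaps the end of Endog on the other strand, was 10.40 ± 0.16 (SD, n = 12) in high and 10.40 ± 0.19 (n = 9) in low strains, a difference of -0.01 (SE 0.07). Genes of lipid and mitochondrial function close to Endog also missed the threshold. Crat, the carnitine acetyltransferase, differed by -0.17 (SE 0.08), Slc27a4, a fatty acid transporter, by -0.09 (SE 0.09), Coq4 of coenzyme Q synthesis by -0.09 (SE 0.09), and Miga2, a protein of mitochondrial fusion, by -0.09 (SE 0.08). Slc27a4 and Coq4 share 1 assembled gene. Among the remaining genes were Tbc1d13, Phyhd1, Dolk, Sptan1, Ptpa, Tor1a, Trub2, Asb6, Rapgef1, Odf2, Sh3glb2, Gpr107, Med27, Urm1, Nup188, LOC100361008, Dolpp1, Ntng2, Cercam, Prrt1b, Gle1, Ier5l, Dync2i2, Zdhhc12 and Ntmt1. Over all 37 genes the SE ran from 0.04 to 0.26.

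No list of genes tied to the known roles of endonuclease G, to the heart or to its cell types held a called gene. Over all 18 lists, cell type markers included, 0 of 323 measured genes were called by limma, beside 0.0471% of all genes. At that share 323 genes would rarely hold a called one, and each list below still more rarely. Of the 323, 8 had an unadjusted p under 0.05, which is 2.48%, beside 3.58% of all genes. Of the 23 measured genes of mitochondrial DNA maintenance and nucleases none had an unadjusted p under 0.05, and the median difference was 0.01. The related nuclease Exog was 7.25 ± 0.12 in high and 7.24 ± 0.13 in low strains. Tfam, which packages mitochondrial DNA, was 10.28 ± 0.13 and 10.25 ± 0.14, and Polg, the mitochondrial DNA polymerase, 10.66 ± 0.16 and 10.72 ± 0.13 (SD, n = 12 and 9).

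Of 23 genes of mitochondrial apoptosis 0 were called and 1 had an unadjusted p under 0.05, Dffa, an inhibitor of the caspase-activated nuclease, at -0.11 (SE 0.05, adjusted p = 0.928, limma). The 14 regulators of the PGC-1 and ERR group had a median difference of -0.03, and Ppargc1a, the coactivator of mitochondrial biogenesis, differed by 0.12 (SE 0.07). Of 72 nuclear genes of oxidative phosphorylation none had an unadjusted p under 0.05, with a median of -0.07 and a range from -0.14 to 0.11. None of the 26 listed mitochondrially encoded genes was found under its name in the table. The median over all 19099 genes was 0.00.

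In the hypertrophic and fetal program 0 of 24 genes were called, and 1 had an unadjusted p under 0.05, Ankrd23, which encodes a stretch-responsive ankyrin repeat protein of the sarcomere, at 9.83 ± 0.36 in high and 10.19 ± 0.30 in low strains (difference -0.36, SE 0.14, adjusted p = 0.928, limma). Nppa, the atrial natriuretic peptide, was 12.78 ± 0.59 in high and 13.06 ± 0.52 in low strains, Nppb, the B-type peptide, 13.19 ± 0.30 and 13.26 ± 0.34, and Myh7, the slow myosin heavy chain, 15.66 ± 0.42 and 15.79 ± 0.54 (SD, n = 12 and 9). The differences of Nppa, Nppb and Myh7 were smaller than the spread within a group. Among 37 genes of fatty acid oxidation and lipid storage none had an unadjusted p under 0.05, and the median was -0.05.

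Of 25 genes of antioxidant defence 4 had an unadjusted p under 0.05, all lower in high strains, and none was called. They were Txnrd1 (-0.15), Srxn1 (-0.36), Cat (-0.11) and Nqo1 (-0.17), with Txnrd1, a thioredoxin reductase, at an adjusted p of 0.928. The median of this list was -0.11. In the extracellular matrix list 0 of 29 were called, and Postn, which encodes the matrix protein periostin, differed by 0.46 (SE 0.18, adjusted p = 0.928, limma).

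No cell type marker was called, beside 0.0471% of all genes, a share at which lists this short would rarely hold a called gene. Of 10 cardiomyocyte, 9 fibroblast, 10 endothelial, 9 pericyte and smooth muscle, 11 lymphocyte, 7 atrial, 8 mesothelial and adipocyte and 7 erythroid markers measured, 0 were called. The cardiomyocyte sum was the highest of these lists, from 20.99 to 21.32 in high and from 21.01 to 21.47 in low strains. The erythroid sum ran from 17.74 to 19.22 and from 17.86 to 19.12. All 10 cardiomyocyte markers were lower in high strains, with differences from -0.13 to -0.02, a median of -0.08 and 0 with an unadjusted p under 0.05. Median differences of the other lists of this paragraph ran from -0.07 (endothelial) to 0.05 (mesothelial and adipocyte). In bulk tissue, fewer cells of a type and less RNA per cell cannot be told apart.

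The progenitors gave a comparison in animals that had no part in the grouping. In the table of assembled genes, 6603 of 46063 genes were called between 4 BN-Lx and 4 SHR animals of batch 1 (limma), which is 14.3%, and within 20 Mb of Endog 125 of 722 were called, which is 17.3%. Of the 5 called genes near Endog, 3 had an assembled gene of their own name, and all 3 were called in the progenitors with BN-Lx standing where the high strains stood.

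LOC302022 was at 10.07, 10.04, 10.40 and 10.21 in BN-Lx and at 7.93, 8.30, 8.66 and 8.35 in SHR (difference 1.87, SE 0.14, adjusted p = 2.72e-06, limma). Rexo4 was at 10.98, 10.90, 10.96 and 10.96 in BN-Lx and at 10.36, 10.34, 10.33 and 10.27 in SHR (difference 0.63, SE 0.07, adjusted p = 5.81e-05, limma). Hmcn2 was at 9.56, 9.78, 9.42 and 9.58 in BN-Lx and at 10.68, 10.71, 10.47 and 10.84 in SHR (difference -1.09, SE 0.10, adjusted p = 1.45e-05, limma). The groups of animals did not overlap for these genes, which held for 20.6% of all assembled genes.

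Pierce1, matched by its present name, was at 1.96, 1.98, 1.63 and 2.05 in BN-Lx and at 5.43, 5.42, 4.77 and 5.55 in SHR (difference -3.39, SE 0.28, adjusted p = 5.89e-06, limma). The assembled gene shared by Card9, Entr1 and Snapc4 was lower in BN-Lx (-0.46, SE 0.08, adjusted p = 0.00157), and that shared by Aif1l and Nup214 was lower as well (-0.75, SE 0.07, adjusted p = 2.09e-05, limma), though neither value belongs to 1 gene. The RefSeq table held 2 later libraries of SHR replicate 4, whose column names carry the 2 batch labels of the strains, 1 each. They had Endog at 8.60 and 8.26, LOC302022 at 5.55 and 5.74, Card9 at 9.47 and 9.37, and RGD1306233 at 4.26 and 4.29. All of these lay in the range of the low strains except Endog at 8.26, just below it. The values of LOC302022 and Card9 also lay inside the range of the high strains, which reached there only through BXH13/Cub. Aif1l at 9.62 and 9.54 and LOC102550392 at 6.65 and 6.74 lay in the low range as well. Rexo4 at 10.37 and 10.40 and LOC102554501 at 6.14 and 6.48 lay beyond the low range, on the side away from the high strains. Hmcn2 at 10.45 and 10.43 lay just below the low range and inside the high range, which again reached there only through BXH13/Cub. LOC120101859 at 2.44 and 2.28 lay inside the range of the high strains, the first of them above every low strain.

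**Figure D5:**
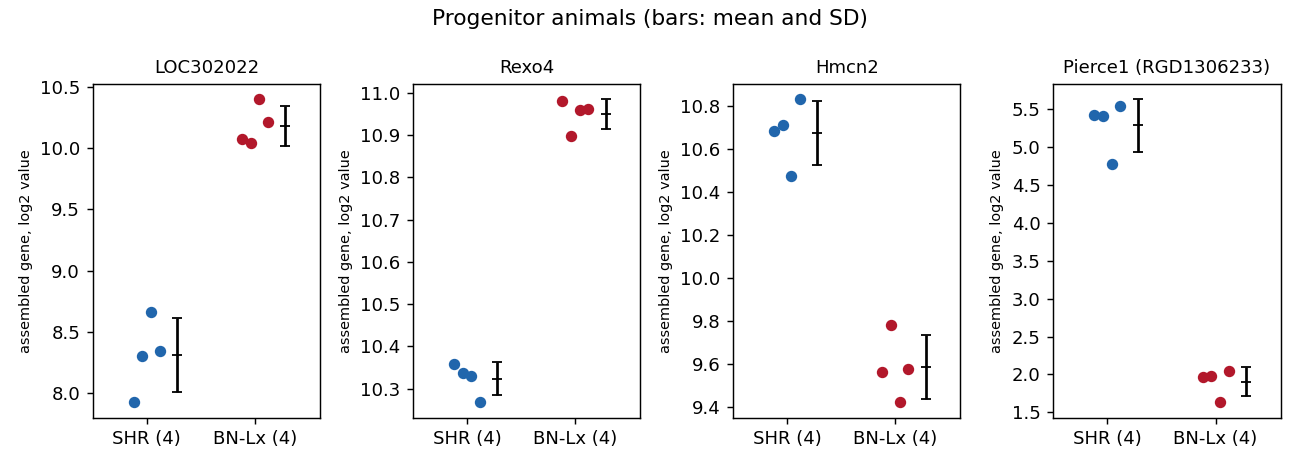
Log2 values of the assembled genes LOC302022, Rexo4, Hmcn2 and Pierce1 (y axes) in 4 SHR and 4 BN-Lx animals, a point for each animal, with the mean and SD. LOC302022 and Rexo4 are higher in BN-Lx, by 1.87 and 0.63, Hmcn2 and Pierce1 are lower, by -1.09 and -3.39, and no group overlaps the other.

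When high and low strains were compared in the table of assembled genes, 14 of 46062 genes were called by limma (0.0304%), 9 within 20 Mb of Endog and 5 on other chromosomes. Of the 9, Pierce1, Hmcn2 and 2 assembled genes carrying the name LOC302022 bear names met above, and the other 5 carried no name. The smaller LOC302022 gene, from 4085964 to 4108235, lies inside the span of the larger on the same strand, so that they may share reads. Rexo4 was not called in this table (0.34, SE 0.08, adjusted p = 0.626), and the values of the RefSeq and the assembled Rexo4 had a rank correlation of 0.80 over the 21 strains. The assembled genes that Card9 and Aif1l share with other names were not called either. Their differences were -0.40 (SE 0.11, adjusted p = 0.871, limma) and -0.60 (SE 0.12, adjusted p = 0.0866, limma). For Pierce1, high strains ran from 1.77 over 1.99 to 4.59 and low strains from 4.66 over 5.31 to 5.94, without overlap, which held for 5 of the 46062 genes (0.0109%).

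Among the unnamed genes, an assembled gene of 12 exons at 13949383 to 14010863 on the plus strand of chromosome 3, 0.50 Mb from Endog, ran from 6.98 to 7.82 in low and from 4.00 to 6.72 in high strains (difference -2.51, SE 0.32, adjusted p = 0.000298, limma). It was 4.24 ± 0.34 in BN-Lx and 7.95 ± 0.08 in SHR (SD, n = 4 each). Further unnamed called genes, from 13949447 to 13959414 and from 13959887 to 13963725, lie inside the span of this 12-exon gene. They are on the same strand, so these genes may share reads. Another, with 3 exons at 10331965 to 10368033, ran from 7.73 to 8.88 in low and from 3.58 to 7.89 in high strains (difference -3.49, SE 0.47, adjusted p = 0.000872, limma). The calls within the first Mb in this table were thus of unnamed genes. Those genes lie in rn7 between LOC100361008 and Ntmt1, the neighbours of LOC102554501 and LOC102550392 in GRCr8. Whether they are the same genes was not tested.

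The 5 called genes on other chromosomes were unnamed too, all lower in high strains. The clearest were 2 overlapping genes on chromosome 1, from 63623694 to 63629602 and from 63623695 to 63627521, so that they may share reads. The first ran from 7.08 to 7.93 in low and from 3.02 to 6.82 in high strains (difference -3.31, SE 0.40, adjusted p = 0.000261, limma). In the progenitors it was 3.24 ± 0.60 in BN-Lx and 7.72 ± 0.33 in SHR. A gene of 1 exon on chromosome 18 from 83587762 to 83588283 ran from 4.21 to 5.19 in low and from 1.98 to 4.12 in high strains (difference -1.82, SE 0.22, adjusted p = 0.000261). The others lay on chromosome 2 from 154677070 to 154678696 (-1.94, SE 0.31) and on chromosome 19 from 22911965 to 22915105 (-2.18, SE 0.36). Of all 14 assembled genes, 13 were called between BN-Lx and SHR in the same direction. Several of the 14 overlap each other, so they are not 14 separate places in the genome. Among Ensembl genes, 6 of 17300 were called (0.0347%), all within 20 Mb of Endog. Whether reads of the 5 genes on other chromosomes stem from the positions at which they were assembled was not tested.

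The effect of the Endog group was not found to differ between the families. In a model with the interaction of group and family, limma called 0 of 19099 genes, with 582 at an unadjusted p below 0.05. A group within a family held 4 to 7 strains, so a difference between families could be missed. The differences within each family were taken from values with the batch term of the main model removed. The difference between high and low strains was 2.49 in HXB and 1.94 in BXH for LOC302022, -1.76 and -2.33 for Card9, 0.38 and 0.33 for Rexo4, and -0.83 and -1.32 for Aif1l. The direction was thus the same in both families for these genes. For Aif1l the interaction was 0.52 (SE 0.22, unadjusted p = 0.0298, limma), which was not called.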

How the data were processed

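The authors deposited log2 values per gene. The transformation and whether reads were counted by strand are not stated in the sources used here. Tools credited in the submitters' processing notes, without roles, include RSEM 1.3.1, StringTie 1.3.5, and HISAT2 2.1.0, with DESeq2 and cutadapt 1.9.1, and the build is rn7. No counts were used, so depth is unknown, and 1 column that could not be mapped to a sample was not used.

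High and low strains were compared with limma 3.58.1 in R 4.3.3 (intensity trend, sequencing batch as covariate, two-sided, Benjamini-Hochberg over 19099 genes, threshold 0.05), leaving out Endog and 69 spike-in RNAs. Positions came from the deposited rn7 annotation by gene name, for 13738 of 19100 genes. Named were the genes within 1 Mb (except an item not reported here), the called genes with the smallest p (12 within 20 Mb, 10 elsewhere), called list members (at most 2 per list) and called genes within 20 Mb whose ranges did not overlap. The unnamed assembled genes, uncalled list members, and the other genes outside the rule were chosen after their values were seen. The groups, genes and lists were chosen with earlier results of these data known. The progenitor replicates may share litters, and their p-values then reflect only the spread among these animals. Exact permutation tests used scipy 1.17.1. On simulated data for this comparison (19099 genes, 50 changed per size), 20% of changes of 0.25, 88% of 0.5, 98% of 1 and 100% of 2 were recovered. All sizes were in 1 simulated table drawn without group differences of its own, in which 9 of 162 calls were of unchanged genes, and with no gene changed there were 0 calls.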

Additional observations from a re-analysis of the deposited data

Results flagged for a closer look

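In 61 groups of 4 to 9 samples, 4 groups held a sample set apart from the rest by Dixon's criterion, and chance alone gives about 1 group in 20. All were single progenitor animals in the table of assembled genes. SHR replicate 3 was at 4.77 for Pierce1. BN-Lx replicate 1 was at 3.35 for an unnamed gene 0.50 Mb from Endog (13949447 to 13959414). BN-Lx replicate 3 was at 4.15 for the first of the overlapping genes on chromosome 1, and BN-Lx replicate 2 at 3.20 for the gene on chromosome 19. In each case the other strain's animals still did not overlap with these values.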

How the results depend on the processing

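The count of 5 called genes within 20 Mb of Endog and 0 elsewhere depended on the table, the covariates and the grouping. Within 20 Mb it was 9 with family as a further covariate, 10 with the spike-in level (chosen after seeing the data), 9 in the assembled table, 1 in batch 2 alone and 0 when strains were grouped at 9.2 by Endog in the assembled table, which exchanged BXH8/Cub and HXB13/Ipcv. In that grouping the differences kept their direction, with adjusted p from 0.0517 to 1.0, and 296 positioned genes elsewhere had an unadjusted p under 0.05. Elsewhere the count was 1 in batch 2 alone (Acox2, an acyl-CoA oxidase, 2.17, adjusted p = 0.0204, against 0.59 and 0.928 over both batches) and 5 in the assembled table. Leaving out each strain gave 5 to 7 within 20 Mb, with 7 without BXH13/Cub or BXH9/Cub, and 0 to 0 elsewhere. No called gene changed direction under any alternative run. Counts of list members and of family interactions stayed at 0. The 3 genes matched in the progenitors were called under all 12 alternatives, including a replicate block (3 of 3). The progenitor replicate numbers did not pair the animals (correlations of deviations 0.19, -0.38, -0.17 and 0.15), and the block gave 5437 calls in place of 6603, 100 of them within 20 Mb. Leaving out an animal gave 4377 to 6114 calls and 80 to 111 within 20 Mb, the fewest without SHR replicate 4. The progenitor comparison in the earlier version of the tables was not run, since the columns used there held no BN-Lx.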

Other observations

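Among the positioned genes away from Endog, Kbtbd11 on chromosome 16 had the smallest unadjusted p. It ran from 5.26 over 5.50 to 5.93 in low strains and from 5.52 over 5.88 to 6.10 in high strains (0.36, SE 0.09, adjusted p = 0.469, limma). It did not pass, the groups overlapped, and it was chosen after its values were seen.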
